A study of Mus musculus with 12 samples.

Results

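The 8 genes Spi1, Irf8, Irf5, Cebpa, Cebpb, Maf, Runx1 and Ikzf1, which encode transcription factors of the myeloid lineage, were followed across 4 populations of cells sorted from mouse glioblastoma. They were chosen by gene symbol, and all 8 were among the 18180 genes of the expression table. The tumors arose in adult mice that carried a conditional human EGFR transgene, Cdkn2A-/- alleles and a conditional luciferase reporter, among other engineered alleles, on a mixed background (C57Bl/6J, 129S4, FVBN/J and Balb/cJ per the labels, with SJL added in the study's methods), and were started by injecting a lentivirus that expressed Cre recombinase into the striatum. All 4 populations shared these alleles. The 3 end-stage tumors (T3, T4 and T5) were dissociated, and EGFR+ cells were sorted by surface PDGFRA (PDGFRA+ and PDGFRA-) or by surface galectin-1 (GAL1+ and GAL1-). Each tumor gave 1 library per population, so the 12 libraries form 4 groups of 3. The study's methods give age ranges for its animals in general and not the age at which these 3 tumors were sorted. The vector that started each of them was not given in the sources used here.

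PU.1, the product of Spi1, is an ETS-domain factor required for the formation of macrophages and microglia, and it binds many myeloid enhancers together with C/EBP and interferon regulatory factors. Runx1 and Ikzf1 (Ikaros) act earlier in blood cell formation and remain expressed in many mature leukocytes, Irf8 and Irf5 control macrophage maturation and inflammatory gene expression, and Maf belongs to the large Maf proteins of tissue macrophages. Cebpb and Runx1 are also known from glioma cells with a mesenchymal expression program.

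Promoters of 6 of the 8 genes were matched by symbol in RefSeq (GRCm38.p6), with 9 annotated starts among them. Spi1 and Maf had no entry. The motifs searched on both strands, from 250 bases before to 50 bases after each start, were AGGAAG (PU.1), GGAA and GAAA with any 2 bases between them (the ETS-IRF composite), GAAA and GAAA with any 2 bases between them (IRF), TTNCNNAA (C/EBP, where N is any base), TGTGGT (RUNX) and TGGGAA (Ikaros). The 250 bases before 4 of the starts are shown, for Irf5 and Ikzf1, which differed widely between the galectin-1 populations, and for Irf8 and Runx1, which differed least. Each sequence reads 5′ to 3′ toward the start, and capitals mark motif matches:
Irf5, chr6:29526375-29526624, plus strand: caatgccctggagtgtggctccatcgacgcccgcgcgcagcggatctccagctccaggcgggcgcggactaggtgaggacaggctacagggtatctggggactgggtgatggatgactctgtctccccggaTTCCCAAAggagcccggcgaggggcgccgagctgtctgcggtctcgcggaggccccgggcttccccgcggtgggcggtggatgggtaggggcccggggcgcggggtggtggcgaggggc
Irf8, chr8:120736108-120736357, plus strand: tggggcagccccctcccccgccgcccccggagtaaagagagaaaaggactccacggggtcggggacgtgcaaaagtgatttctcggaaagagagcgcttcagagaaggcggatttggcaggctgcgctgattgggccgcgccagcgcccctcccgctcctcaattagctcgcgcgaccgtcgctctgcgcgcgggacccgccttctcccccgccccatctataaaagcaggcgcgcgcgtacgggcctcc
Runx1, chr16:92826075-92826324, minus strand: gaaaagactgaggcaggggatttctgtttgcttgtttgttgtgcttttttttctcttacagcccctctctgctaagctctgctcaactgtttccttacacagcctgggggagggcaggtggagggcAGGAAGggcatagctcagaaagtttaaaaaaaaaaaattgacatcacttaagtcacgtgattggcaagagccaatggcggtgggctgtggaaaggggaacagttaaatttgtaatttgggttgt
Ikzf1, chr11:11689927-11690176, plus strand: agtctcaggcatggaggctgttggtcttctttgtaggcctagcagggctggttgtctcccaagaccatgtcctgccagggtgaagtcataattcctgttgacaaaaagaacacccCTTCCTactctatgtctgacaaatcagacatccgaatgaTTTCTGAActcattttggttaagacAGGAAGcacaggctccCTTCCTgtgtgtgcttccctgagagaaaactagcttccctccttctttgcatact

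The PU.1 motif occurred in 2 of the 9 windows, against 35.4% of the 32851 mouse promoters of the same length. It matched 3 times before this Ikzf1 start, at positions -135, -71 and -55 from the start, and once before the Runx1 start shown, at -124. The C/EBP motif also occurred in 2 windows (40.7% of all promoters), at -119 for Irf5 and -96 for Ikzf1. The Irf5 match is the run TTCCCAAA, which overlaps an Ikaros match on the opposite strand. The Ikaros motif was found in 3 windows (25.6% of all promoters), those of Irf5 and of both Irf8 starts, at 37 after the Irf8 start shown and at -242 from the other. The RUNX motif occurred in 1 window (16.8% of all promoters), with matches at 29 and 37 after the Runx1 start shown. The ETS-IRF and IRF motifs, held by 2.72% and 3.44% of all promoters, were in none of the 9 windows. Ikzf1 and Runx1 each had another start, not shown, whose window held no match to any of the motifs. A match of letters is a description of the sequence, and the counts per gene used here do not separate the starts.

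Levels are given as log2 CPM, the log2 of CPM, which are read counts scaled to the size of each library by the TMM method, as the authors deposited them. Estimated depth was 9851175 to 24117541 reads per library. The sources describe the sorted cells as CD45-, whereas the sort itself is described with antibodies to EGFR and to PDGFR or galectin-1. Ptprc, which encodes CD45, was detected in every population. GAL1- cells had 4.60 ± 0.79 log2 CPM, PDGFRA+ cells 6.92 ± 0.70, PDGFRA- cells 7.46 ± 1.06 and GAL1+ cells 8.65 ± 0.40 (mean ± SD, n = 3 tumors). The summed level of 14 pan-leukocyte genes was 101.4 to 273.9 CPM for GAL1- libraries, 732.5 to 1783 for PDGFRA+, 830.5 to 3504 for PDGFRA- and 3244 to 4324 for GAL1+, and none of the 14 was at the floor of 3 reads in any library. The 7 markers of oligodendrocyte precursors ran the other way, with a summed level of 5102 to 6291 CPM in GAL1- and 623.1 to 1895 in GAL1+ libraries. The part of leukocyte RNA in the differences described here was not tested beyond the values relative to these 14 genes, and in these bulk samples a change in the share of cells and a change in RNA per cell cannot be told apart.

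The PDGFRA- library of T5 stood apart from its group. On the first principal component over all genes, which held 58.5% of the variance, it lay at 82.4, within the range of the GAL1+ libraries (63.8 to 120.1), whereas the other PDGFRA- values were -13.5 (T3) and -16.8 (T4). Counts of called factors that use PDGFRA- cells are therefore also given without it. Of the sorted proteins, Lgals1 (galectin-1) RNA in GAL1+ cells exceeded that in GAL1- cells by 1.29 on the log2 scale (adjusted p = 0.000967), while Pdgfra RNA was 1.60 higher in PDGFRA+ than in PDGFRA- cells with an adjusted p of 0.249.

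All 8 factors had their highest mean level in GAL1+ cells and their lowest in GAL1- cells, with both PDGFRA populations between. Spi1 was at 1.28, 2.78 and 2.46 log2 CPM in the GAL1- libraries of T3, T4 and T5, at 4.81, 5.96 and 5.86 in PDGFRA+, at 5.62, 4.41 and 6.79 in PDGFRA- and at 6.99, 7.21 and 7.09 in GAL1+. The 3 GAL1+ values lay close together above all other libraries, and the 3 GAL1- values lay below all others. Ikzf1, the Ikaros gene, had the same order of means, with 0.13, 2.87 and 2.17 log2 CPM in GAL1-, 3.86, 5.14 and 4.57 in PDGFRA+, 4.48, 4.02 and 5.91 in PDGFRA- and 5.79, 6.17 and 6.01 in GAL1+. Its GAL1- value in T3 rested on an estimated 30 reads, the fewest of any of the 8 genes in any library.

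**Figure D1:**
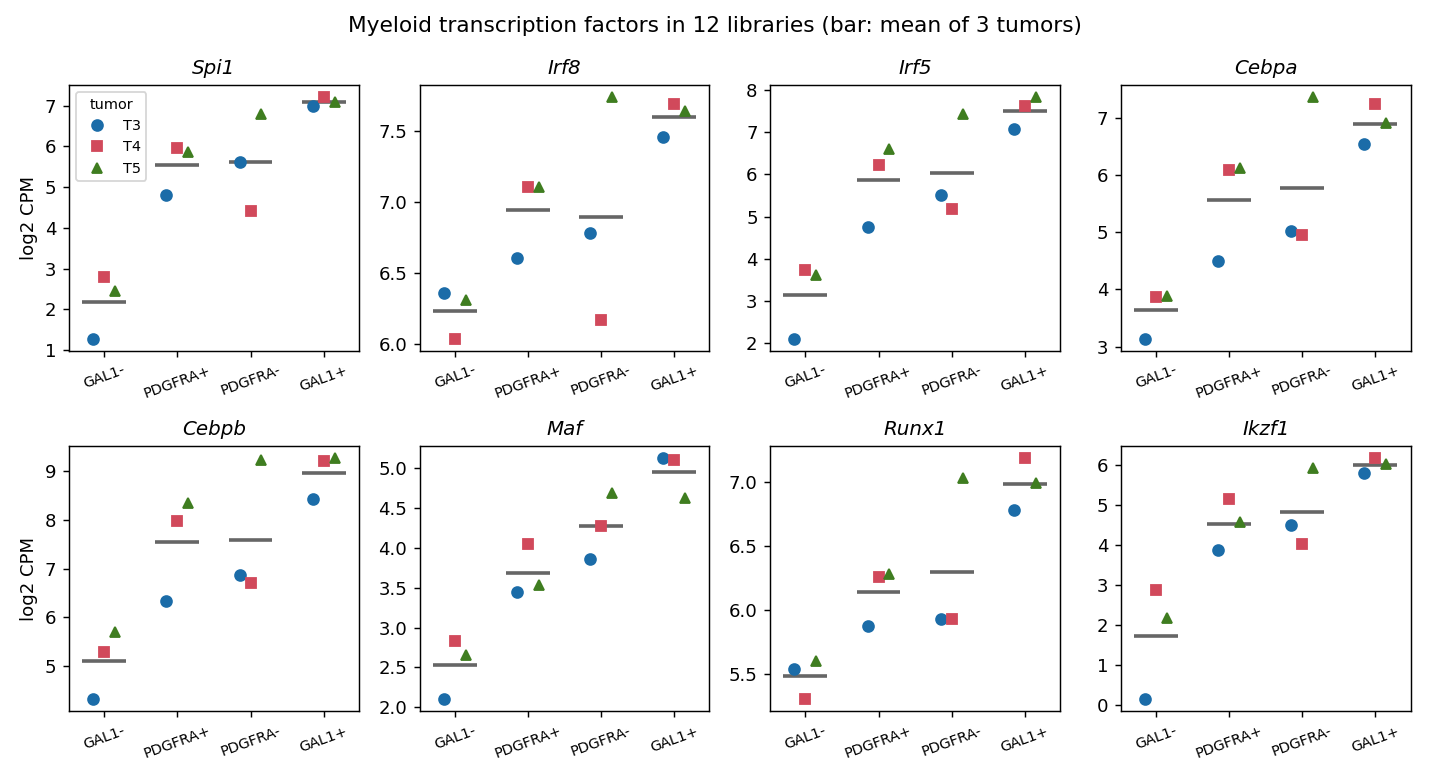
Level of each of the 8 factors (log2 CPM, vertical axis, scaled per gene) in the 4 sorted populations (horizontal axis), 1 point per tumor and a bar at the mean of 3 tumors. In every panel the GAL1- points lie below the GAL1+ points, and the PDGFRA- point of T5 lies highest of its group.

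Irf5, an interferon regulatory factor that acts downstream of Toll-like receptors, was at 2.11, 3.74 and 3.61 log2 CPM in GAL1-, 4.75, 6.23 and 6.60 in PDGFRA+, 5.52, 5.17 and 7.43 in PDGFRA- and 7.07, 7.61 and 7.83 in GAL1+ (T3, T4 and T5 in each case). Irf8, which macrophages and microglia require for their maturation, was at 6.36, 6.04 and 6.31 in GAL1-, 6.61, 7.11 and 7.11 in PDGFRA+, 6.78, 6.17 and 7.74 in PDGFRA- and 7.46, 7.69 and 7.64 in GAL1+. The PDGFRA- library of T4 lay among the GAL1- libraries for Irf8, and that of T5 lay above all 3 GAL1+ libraries. Both interferon regulatory factors thus kept the GAL1- and GAL1+ libraries apart, over a much narrower span for Irf8 than for Irf5.

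Cebpb, a C/EBP factor of inflammatory gene expression, was at 4.32, 5.28 and 5.70 log2 CPM in GAL1-, 6.33, 7.97 and 8.35 in PDGFRA+, 6.86, 6.70 and 9.22 in PDGFRA- and 8.42, 9.20 and 9.27 in GAL1+. Cebpa, the C/EBP factor of early granulocyte and monocyte commitment, was at 3.14, 3.87 and 3.89 in GAL1-, 4.5, 6.09 and 6.12 in PDGFRA+, 5.02, 4.96 and 7.37 in PDGFRA- and 6.54, 7.24 and 6.91 in GAL1+. In T3 both genes were lower than in the other tumors in the GAL1-, PDGFRA+ and GAL1+ populations. For both genes the GAL1- libraries overlapped with no other population.

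Maf, a large Maf factor, was at 2.10, 2.83 and 2.65 log2 CPM in GAL1-, 3.45, 4.05 and 3.54 in PDGFRA+, 3.86, 4.28 and 4.69 in PDGFRA- and 5.13, 5.10 and 4.62 in GAL1+. Runx1, whose product binds DNA with the partner Cbfb, was at 5.54, 5.30 and 5.60 in GAL1-, 5.87, 6.26 and 6.28 in PDGFRA+, 5.93, 5.93 and 7.03 in PDGFRA- and 6.78, 7.19 and 6.99 in GAL1+. Runx1, like Irf8, spanned less between populations than Spi1, Irf5 or Ikzf1. The GAL1+ library of T5 was the lowest of its group for Maf, below the PDGFRA- library of the same tumor.

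Levels between genes were compared per kilobase of exon, with lengths from GENCODE M21. In GAL1+ cells Cebpb was highest at 8.37 log2 CPM per kb, followed by Irf5 at 5.97, Spi1 at 5.67, Cebpa at 5.50, Irf8 at 4.78, Ikzf1 at 3.46, Runx1 at 3.40 and Maf at 1.91. The order in GAL1- cells was another: Cebpb at 4.51, Irf8 at 3.42, Cebpa at 2.24, Runx1 at 1.89, Irf5 at 1.61, Spi1 at 0.75, Maf at -0.51 and Ikzf1 at -0.81. Irf8 and Runx1 stood higher in that order than Spi1 in GAL1- cells, and lower than Spi1 in GAL1+ cells. Differences below the SD over tumors, such as that between Ikzf1 and Runx1 in GAL1+ cells, do not separate neighbours in either order, and the lengths do not allow for the isoforms in use.

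The comparison of GAL1+ with GAL1- cells asks whether the cells sorted by surface galectin-1 differ in these factors. All 8 were higher in GAL1+ cells at an adjusted p under 0.05, against 28.9% of all genes, and for all 8 the 3 GAL1+ values lay above the 3 GAL1- values, against 30.1% of all genes. The median log2 fold change of the 8 was 3.56, beside -0.03 over all genes. The test was limma with tumor as a block, fitted over all 12 libraries and adjusted over all 18180 genes by the Benjamini-Hochberg method.

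Spi1 differed most, by 4.92 ± 0.50 (log2 fold change ± SE), which is 30.3-fold (adjusted p = 5.8e-05). Irf5 was 20.4-fold higher in GAL1+ cells (4.35 ± 0.41, adjusted p = 4.94e-05) and Ikzf1 19.2-fold (4.27 ± 0.54, adjusted p = 0.000155). Cebpb was 14.5-fold higher (3.86 ± 0.41, adjusted p = 6.96e-05) and Cebpa 9.58-fold (3.26 ± 0.46, adjusted p = 0.000269). Maf was 5.37-fold higher, with a log2 difference of 2.42 ± 0.24. Runx1 and Irf8 rose least, 2.84-fold (1.5 ± 0.23, adjusted p = 0.000423) and 2.57-fold (1.36 ± 0.28, adjusted p = 0.00256). The 95% intervals of Irf8 (0.73 to 1.99) and Runx1 (0.99 to 2.02) lay wholly below those of Spi1 (3.81 to 6.03), Irf5 (3.43 to 5.28) and Ikzf1 (3.06 to 5.47). The Ikzf1 difference was smaller without the GAL1- library of T3 (3.67, adjusted p = 0.000532) or without the 4 T3 libraries (3.57, adjusted p = 0.00703). Each of the 8 was higher in GAL1+ cells in 3 of 3 tumors.

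**Figure D2:**
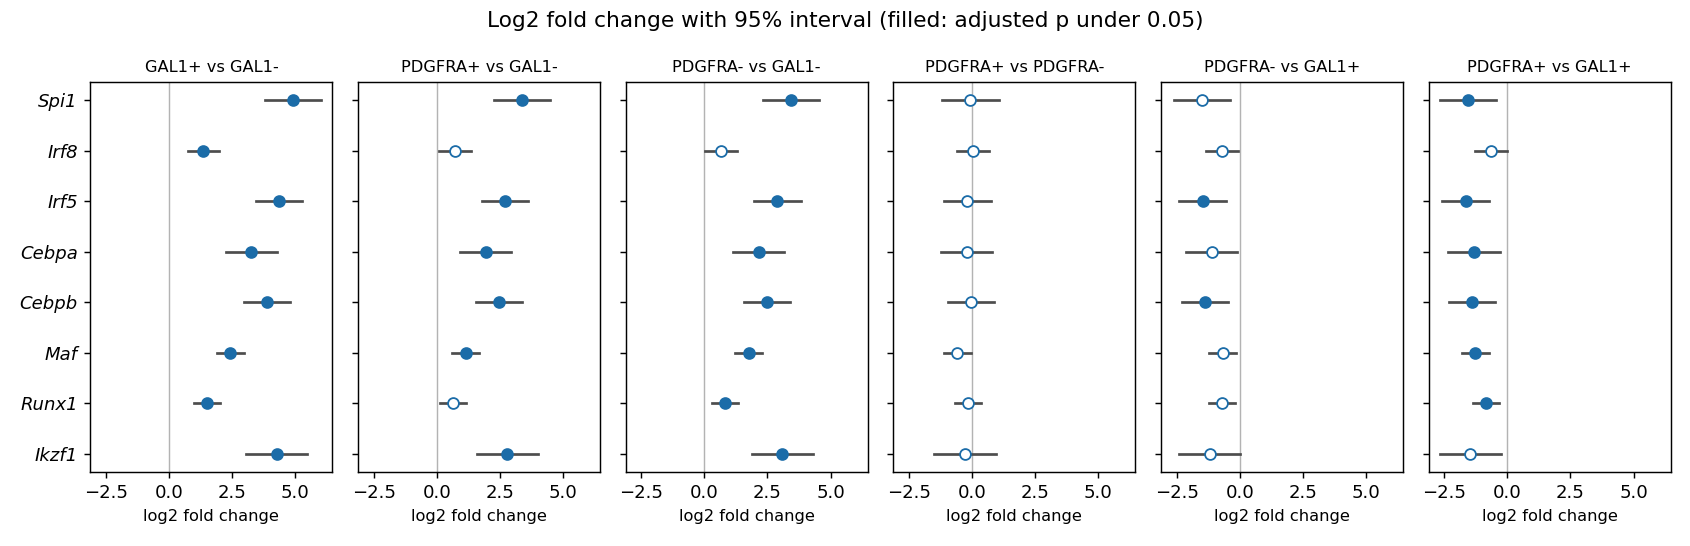
Log2 fold change (horizontal axis) of each factor in the 6 comparisons of populations, as a point with its 95% interval, filled where the adjusted p was under 0.05. All 8 are filled for GAL1+ over GAL1-, from 1.36 for Irf8 to 4.92 for Spi1, and none for PDGFRA+ over PDGFRA-.

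No factor passed the test between PDGFRA+ and PDGFRA- cells, where limma called 0 of 8, and the background was 0% because no gene of the table was called. The log2 differences ran from -0.60 for Maf to 0.04 for Irf8. At an unadjusted p under 0.05 there was 1, Maf, lower in PDGFRA+ cells by 1.51-fold (95% interval of the log2 difference -1.13 to -0.06, adjusted p = 0.387), against 11.8% of all genes, and Maf had the same sign in 3 of 3 tumors. For the other 7 the intervals were wide, from -1.49 to 0.93 for Ikzf1 and from -0.67 to 0.35 for Runx1. With 3 tumors, differences within these intervals were therefore not excluded. In T4, Spi1 was higher in PDGFRA+ cells by 1.55, whereas in T3 and T5 it was lower, with differences of -0.81 and -0.93. Cebpb had the same pattern, with differences of -0.53, 1.27 and -0.87 in T3, T4 and T5. Without the PDGFRA- library of T5 the differences changed sign for 6 of the 8, to 0.43 for Spi1, 0.49 for Cebpb, 0.45 for Cebpa, 0.27 for Irf5, 0.19 for Ikzf1 and 0.16 for Runx1, and still none was called.

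The difference made by the galectin-1 sort exceeded that made by the PDGFRA sort for all 8 factors. Tested as a difference of differences, which shares no library between its sides, 8 of 8 were called in this direction, against 26.2% of all genes. Spi1 differed by 4.98 ± 0.70 (adjusted p = 0.0005), Maf by 3.02 ± 0.34 (adjusted p = 0.000279) and Irf8, the smallest, by 1.31 ± 0.40 (adjusted p = 0.0206). Without the PDGFRA- library of T5 all 8 were called, with 4.49 for Spi1, 2.76 for Maf and 0.94 for Irf8 (adjusted p = 0.0294). The fit without that library called 8142 of all genes in either direction. Without that of T4 the Spi1 value was 5.77.

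PDGFRA+ cells had lower levels of 6 of the 8 factors than GAL1+ cells at an adjusted p under 0.05, against 17% of all genes. For all 8 the PDGFRA+ values lay below the GAL1+ values, against 22.5% of all genes. Irf5 was 3.12-fold lower (-1.64 ± 0.41, adjusted p = 0.0136), Spi1 2.93-fold lower (-1.55 ± 0.50, adjusted p = 0.0345), Cebpb 2.65-fold (adjusted p = 0.0238), Cebpa 2.51-fold (adjusted p = 0.045), Maf 2.42-fold (adjusted p = 0.00415) and Runx1 1.80-fold (adjusted p = 0.0179). Ikzf1, at -1.47 (adjusted p = 0.0562), and Irf8, at -0.65 (adjusted p = 0.0945), did not pass. The pan-leukocyte list differed in the same comparison by a median of -1.55, with 14 of 14 genes called lower. The count for the 8 factors rested on single libraries: with the 4 T3 libraries left out none was called, in a fit that called 2110 of all genes in either direction, and 1 was called without any single one of the T3 or T5 libraries of PDGFRA+ or the T3 or T4 libraries of GAL1+, while 8 were called without the T4 or T5 library of PDGFRA-. Over all genes the fits with 1 factor called 3529 to 5025, and those with 8 called 7887 and 7677. With all 12 libraries the number was 6900.

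Against GAL1+ cells, PDGFRA- cells had lower levels of 2 of the 8 factors, beside 6.91% of all genes. These were Irf5 (-1.47 ± 0.41, adjusted p = 0.0362) and Cebpb (-1.37 ± 0.41, adjusted p = 0.0433). The other 6 had differences of -1.49 to -0.67 and adjusted p-values of 0.0603 to 0.141. In T5, the tumor whose PDGFRA- library stood apart, Cebpa, Irf8, Maf and Runx1 were at or above their GAL1+ level, by 0.46, 0.10, 0.07 and 0.05. Without the PDGFRA- library of T4 the differences of Irf5 and Cebpb were -0.85 and -0.78. Without that of T5 7 of the 8 were called lower, whereas 0 were called without the T3 or T4 library of PDGFRA-, the T3 or T5 library of PDGFRA+ or any 1 of the 3 GAL1+ libraries, and 1 without any 1 of the 3 GAL1- libraries. The number of all genes called, in either direction, moved as well. It was 3652 with all 12 libraries and 5837, 1312 and 1026 without the PDGFRA- library of T5, T3 and T4. The other fits with 0 factors called 685 to 2698 genes, and those with 1 called 2839 to 3540.

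Both PDGFRA populations had higher levels of most of the factors than GAL1- cells. In PDGFRA+ cells 6 of 8 were called higher, against 8.26% of all genes, led by Spi1 (10.3-fold, 3.37 ± 0.50, adjusted p = 0.00317), Ikzf1 (6.95-fold, adjusted p = 0.0103) and Irf5 (6.55-fold, adjusted p = 0.0036). Irf8 (0.71, adjusted p = 0.22) and Runx1 (0.66, adjusted p = 0.144) did not pass, although their PDGFRA+ values did not overlap with GAL1- (8 of 8 factors, against 15.3% of all genes). In PDGFRA- cells 7 of 8 were called higher, against 16.2% of all genes, with Spi1 again first (10.8-fold, 3.43 ± 0.50, adjusted p = 0.00165) and Irf8 not passing (0.66, adjusted p = 0.115). Without the PDGFRA- library of T5 the latter count was 6, in a fit that called 2009 of all genes, and without that of T4 the Spi1 difference was 4.22. Ikzf1 in PDGFRA+ over GAL1- was at 2.20 without the GAL1- library of T3. These comparisons share libraries with those above. With the 4 T3 libraries left out the counts were 0 for PDGFRA+, where that fit called no gene of the table, and 3 for PDGFRA-, with the 4 T5 libraries left out the count for PDGFRA- was 4, and 3 of 8 were called for PDGFRA+ over GAL1- without the T4 library of PDGFRA+. Over all genes 1698 were called for PDGFRA- without T3, 920 for PDGFRA- without T5 and 747 for PDGFRA+ without its T4 library. With all 12 libraries the numbers were 4200 for PDGFRA- and 1504 for PDGFRA+, in either direction.

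Set against the mean log2 CPM of the 14 pan-leukocyte genes in the same library, the 8 factors fell into different patterns. Irf8 lay 3.06 ± 0.85 above that mean in GAL1- cells (mean ± SD, n = 3), 0.95 ± 0.43 above it in PDGFRA+, 0.62 ± 0.25 in PDGFRA- and 0.04 ± 0.06 in GAL1+. Runx1 went from 2.31 ± 0.81 in GAL1- through 0.14 ± 0.49 and 0.02 ± 0.48 to -0.57 ± 0.10 in GAL1+. Maf lay at -0.64 ± 0.33 in GAL1- and -2.60 ± 0.41 in GAL1+, and Cebpa at 0.46 ± 0.33 and -0.66 ± 0.21. For these 4 genes no GAL1- library overlapped with a GAL1+ library. The share of all genes without overlap on this scale was not counted, and 94.9% of all genes were called lower in GAL1+ cells on it.

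The other 4 kept closer to the leukocyte genes. Irf5 was at -0.02 ± 0.28, -0.13 ± 0.39, -0.24 ± 0.28 and -0.05 ± 0.23 in GAL1-, PDGFRA+, PDGFRA- and GAL1+, and Ikzf1 at -1.45 ± 0.72, -1.47 ± 0.22, -1.48 ± 0.11 and -1.56 ± 0.08. Cebpb lay at 1.93 ± 0.43 in GAL1- and 1.41 ± 0.30 in GAL1+. Spi1 was the only one of the 8 with a higher relative mean in GAL1+ (-0.46 ± 0.10) than in GAL1- cells (-1.0 ± 0.12), and its libraries did not overlap between the 2. The share of all genes separated in this direction was not counted.

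Tested by limma on these relative values, 4 of 8 were lower in GAL1+ than in GAL1- cells, Irf8 by -3.02 ± 0.53 (adjusted p = 1.22e-06), Runx1 by -2.88 ± 0.55 (adjusted p = 4.59e-06), Maf by -1.96 ± 0.55 (adjusted p = 0.00102) and Cebpa by -1.12 ± 0.54 (adjusted p = 0.0446). The background in this direction was 94.9%, since nearly every gene of the table rose less than the leukocyte genes did, with a median of -4.41. The 4 factors that were not called had relative differences of 0.54 for Spi1 (95% interval -0.53 to 1.61), -0.03 for Irf5 (-1.09 to 1.03), -0.12 for Ikzf1 (-1.21 to 0.98) and -0.52 for Cebpb (-1.57 to 0.53). The subtracted mean adds the same error to every gene, and limma draws the spread of each gene toward that of all genes. With each gene's own spread, 6 of 8 were called, with Spi1 higher by 0.54 (adjusted p = 0.0067) and Cebpb lower (-0.52, adjusted p = 0.0438) added to the 4. That fit called 17553 of the 18180 genes in either direction. Cebpa lost its call in 2 of the 3 fits without a tumor and 9 of the 12 without a library, among them those without the GAL1- library of T3 (-0.83, adjusted p = 0.201) and without any 1 of the GAL1+ libraries (adjusted p of 0.084 to 0.19). With a macrophage list of 8 genes as the reference, 7 were called lower, and Spi1 was at -0.73 (adjusted p = 0.253). This fit called 17742 of all genes in either direction. The macrophage list averaged only -1.23 to 0.65 log2 CPM in GAL1- libraries, where Lyve1 was at or under 3 reads in 2 libraries and Pf4 in 1. With a microglia list of 9 genes as the reference 4 were called, in a fit that called 17416 of all genes. The gene Fcrls of the microglia list was at or under 3 reads in 1 GAL1- library. Between PDGFRA+ and GAL1+ cells none of the 8 passed on the relative scale by limma, adjusted or at an unadjusted p under 0.05, with differences of -0.09 for Irf5 to 0.91 for Irf8, against 64.8% of all genes called higher and 70.8% at the unadjusted threshold. Without the T4 library of PDGFRA- 2 were called higher, Irf8 (0.91, adjusted p = 0.00461) and Runx1 (0.71, adjusted p = 0.0282), as they were without the 4 T4 libraries. The former fit called 15627 and the latter 15361 of the 18180 genes in either direction, so 2 of 8 lay well below the share of all genes.

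**Figure D3:**
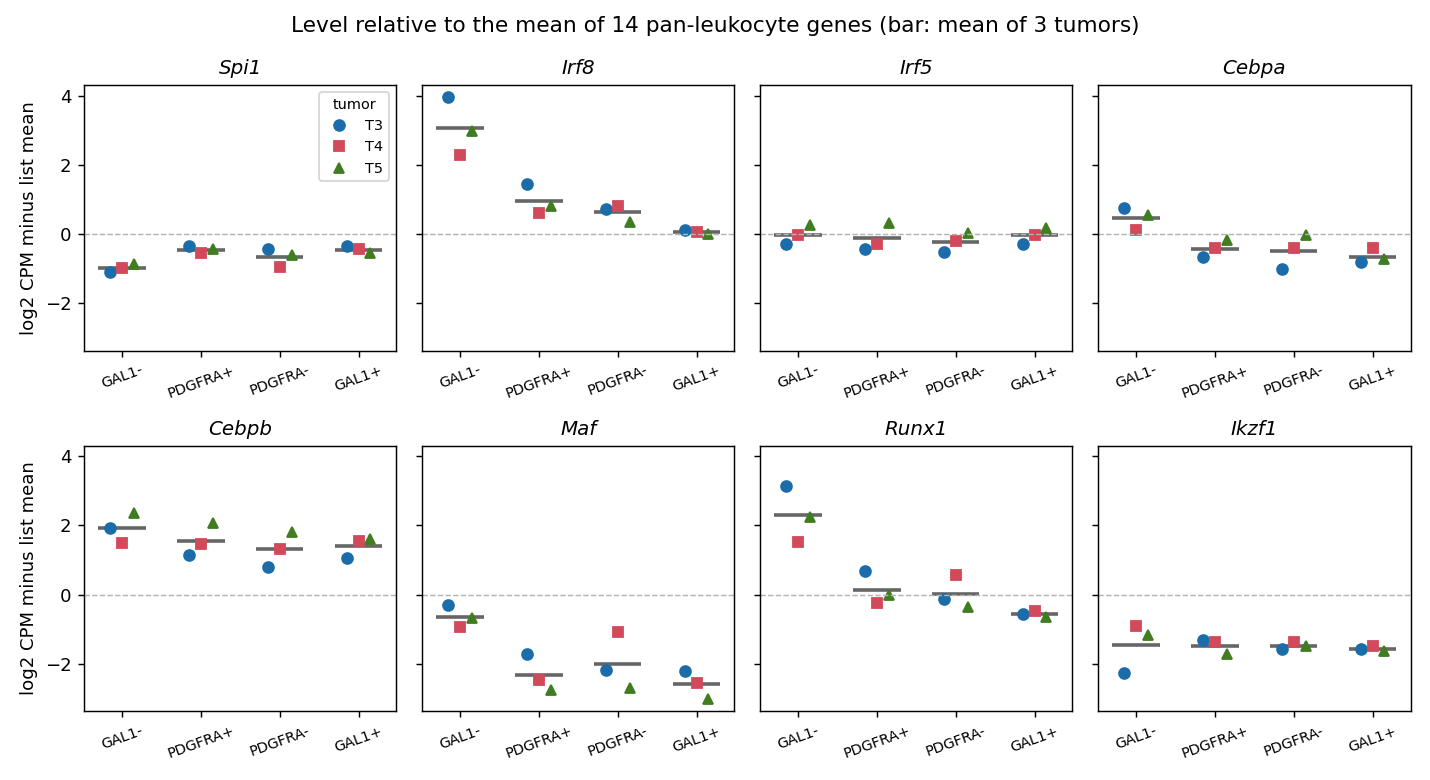
Level of each factor minus the mean of 14 pan-leukocyte genes in the same library (log2 CPM difference, vertical axis, shared scale), by population and tumor, with a bar at the mean of 3 tumors. Irf8 and Runx1 fall from GAL1- (means 3.06 and 2.31) to GAL1+ (0.04 and -0.57), while Irf5 stays between -0.53 and 0.31 in all 12 libraries.

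Genes with a profile over the 12 libraries most like that of each factor were found by the root mean square (RMS) difference of log2 CPM. Each gene's mean was subtracted first. Predicted genes, with names starting with Gm and a digit or with LOC, or ending in Rik, were left out of this search. For Spi1 the nearest were Plau (0.13), Ctsz (0.15) and Arhgdib (0.15). For Irf5 they were Nuak2 (0.15), Nrros (0.16) and Syk (0.17), for Ikzf1 Evi2 (0.20), Tgfb1 (0.24) and Fgd2 (0.24), for Cebpb Adgrg5 (0.17), Irak2 (0.19) and Abi3 (0.22), and for Cebpa AU020206 (0.21) and Csf2ra (0.22) were among the nearest 3. For Maf they were Esyt1 (0.17), Tmem86a (0.20) and Slc31a2 (0.22). Slc35f6 was among the nearest 3 of both Irf8 (0.15, with Gucd1 at 0.12 and Arrdc4 at 0.16) and Runx1 (0.12, with Gpr108 at 0.13 and Irf2bp2 at 0.14). Among the factors themselves, Irf8 and Runx1 differed by an RMS of 0.17 and Irf5 and Cebpb by 0.26, while Spi1 and Irf8 were farthest apart at 1.41.

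The closest relatives of the 8 factors did not move as a block. Of 21 other genes of their families in the table, with the RUNX partner Cbfb, 10 passed as higher (28.9% of all genes) for GAL1+ over GAL1-. Another 4 passed as lower (29.3% of all genes), and the median was 0.36. Runx3 was higher by 4.18 ± 0.35 (adjusted p = 3.94e-05). Spic, the PU.1 relative of red pulp macrophages, was at or under 3 reads in all 3 GAL1- libraries and at 1.82 ± 0.91 log2 CPM in GAL1+. Ikzf4 was lower by -2.23 ± 0.26 (adjusted p = 0.000111) and Cebpd by -1.08 ± 0.14 (adjusted p = 0.000185). Between PDGFRA+ and GAL1+ cells the same list had 2 genes called higher, beside 20.9% of all genes, and 7 lower, beside 17%.

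Other transcription factors known from myeloid cells mostly moved with the 8. Of 34 in the table, 30 passed as higher (28.9% of all genes) and 3 as lower (29.3%) for GAL1+ over GAL1-, with a median of 1.85. In PDGFRA+ against GAL1+ cells 21 were lower (17% of all genes) and 3 higher (20.9%). Lmo2 rose from GAL1- to GAL1+ cells by 4.04 ± 0.44 (adjusted p = 8.06e-05). Tfec was at or under 3 reads in 2 of the 3 GAL1- libraries and at 2.88 ± 0.46 log2 CPM in GAL1+. Myb, a factor of immature blood cells, was lower in GAL1+ cells by -1.74 ± 0.20 (adjusted p = 9.5e-05), as was Tcf4 by -0.99 ± 0.14 (adjusted p = 0.000303).

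Genes known as targets of these factors were higher in GAL1+ than in GAL1- cells in 21 of 21 cases, against 28.9% of all genes. Their median was 4.82, beside 4.36 for the 14 pan-leukocyte genes, of which 14 were called higher. Relative to the mean of those 14 genes, the targets had a median difference of 0.44. On that scale 5 of the 21 were called higher, 4 lower (94.9% of all genes) and 12 neither. The activity of the factors was not tested. Arg1, an arginine-degrading enzyme of macrophages, was higher by 7.96 ± 0.49 (adjusted p = 3.93e-05) and the scavenger receptor gene Msr1 by 7.14 ± 0.42 (adjusted p = 3.93e-05). The smallest differences were those of Cst3 (2.37 ± 0.29) and Tlr4 (2.77 ± 0.30). In PDGFRA+ against GAL1+ cells 19 of the 21 were lower, against 17% of all genes. The microglia list gave 9 of 9 genes higher in GAL1+ cells, the macrophage list 7 of 8 and the monocyte list 6 of 6, against 3 of 7 neutrophil, 1 of 4 dendritic, 2 of 11 T and NK and 1 of 1 B cell genes. Vascular markers were also higher there, in 10 of 11 endothelial and 7 of 7 pericyte genes.

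The glial factors ran opposite to the myeloid ones. Of 14, 14 were lower in GAL1+ than in GAL1- cells, against 29.3% of all genes, with a median of -2.54. Among them were Sox8 (-2.99 ± 0.33, adjusted p = 8.46e-05) and Olig1 (-2.97 ± 0.38, adjusted p = 0.000164), and the smallest differences were those of Nfia (-1.29) and Nfib (-1.5). Listed transcription factors linked to mesenchymal glioma differed little beside them. This list leaves out Cebpb and Runx1, also known from that program, and does not separate its activators from its repressors. Of 6, including Bhlhe40, which was also on the list of other myeloid factors, only Fosl2 was called, higher by 1.20 ± 0.18 (adjusted p = 0.000426), against 28.9% of all genes called higher. Stat3 was at -0.17, Zbtb18 at -0.05 and Wwtr1 at 0.44, and the median was 0.11.

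**Figure D4:**
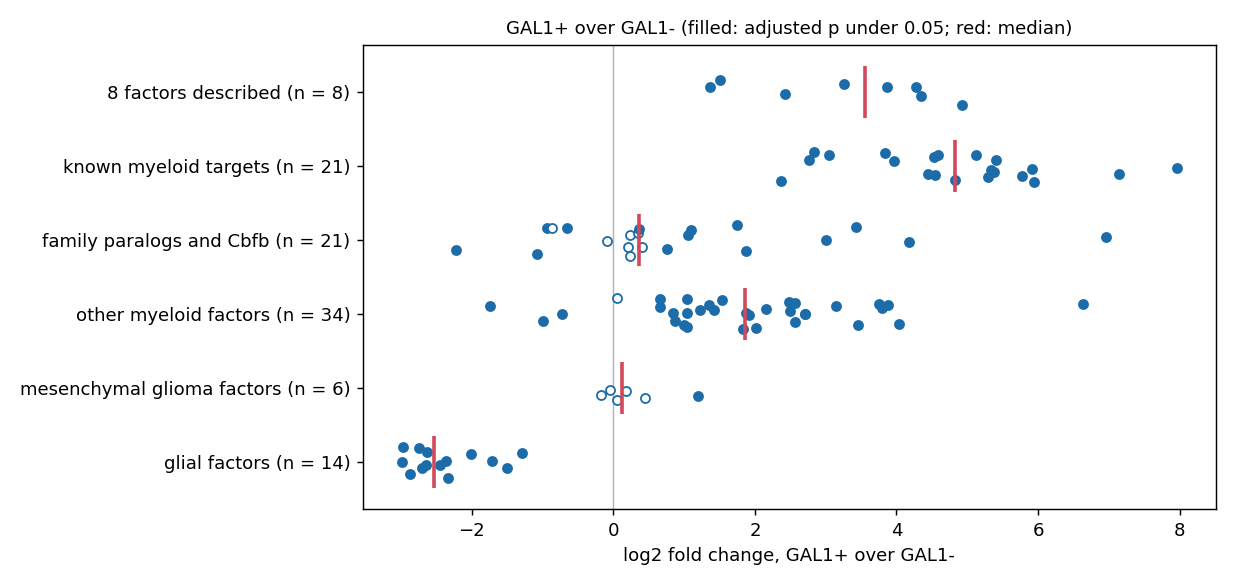
Log2 fold change of GAL1+ over GAL1- cells (horizontal axis) for each gene of 6 groups (rows), filled where the adjusted p was under 0.05, with a red line at the median of the group. The 8 factors (median 3.56) and the 21 targets (4.82) lie to the right, the 14 glial factors (-2.54) to the left, and the 6 mesenchymal glioma factors (0.11) near 0; the points of Spic and Tfec rest on GAL1- levels at or near the floor of 3 reads.

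The study's methods name a stranded library kit, but the strand setting of the counting was not given. Some reads of these genes may therefore be shared with neighbours. In GENCODE M21, Tnpo3 overlaps Irf5 and Tmem189 overlaps Cebpb on the opposite strand. Tnpo3 differed between GAL1+ and GAL1- cells by -0.15 ± 0.11 (adjusted p = 0.286), unlike Irf5. Tmem189 was higher in GAL1+ cells by 2.59 ± 0.28 (adjusted p = 7.97e-05), and its values and those of Cebpb may be in part the same reads. Cebpa, Maf, Runx1 and Ikzf1 each overlap an antisense or noncoding gene, and Irf8 overlaps the predicted gene Gm20388 on its own strand, none of which has a row in the table.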

How the data were processed

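RNA-seq was made from EGFR+ cells of 3 mouse tumors sorted into 4 populations. Per the sources, the authors trimmed reads with fastp, aligned them to mm39 with STAR, counted exons with featureCounts (multimapping reads as fractions), kept genes above 1 CPM in at least 3 samples, and applied TMM and voom. The deposited values are log2 CPM. Tool versions and the strand setting were not given in the sources used here. From these values, limma 3.58.1 in R 4.3.3 was fitted to all 18180 genes and 12 libraries with population and tumor as terms and eBayes with a trend, leaving 6 residual degrees of freedom. P-values were adjusted over all genes by the Benjamini-Hochberg method, and genes under 0.05 were called. With tumor in the fit, these p-values rest on the spread left after population and tumor means in 3 animals. That spread is pooled over the 4 populations and drawn by eBayes toward that of other genes.

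Tumors pair the libraries, since each gave all 4 populations. Deviations from the population means correlated at 0.486 on average within a tumor (18 pairs, 0.14 to 0.662). Read numbers were estimated from the log2 CPM steps with voom's offset of 0.5 (9851175 to 24117541 per library), of which 41.3% to 59.2% came out whole to within 0.01, so no count test was run, and 3 reads were taken as the floor. The members, gene lists and promoter motifs were chosen with earlier results of these data known. Genes named beyond the 8 are the 3 most alike to each, the 2 highest and 2 lowest log2 fold changes of each list in GAL1+ over GAL1- cells, and the sorted proteins with Ptprc; Gm20388, Tnpo3 and Tmem189 were added after their values were seen. A gene most alike to Cebpa and an engineered allele are not reported here. Alternatives were no block, 2 groups only, other eBayes settings and weights, other scalings, filters and a pseudocount of 1, other reference lists, each library or tumor left out, and, added after seeing the data, a test without moderation for the relative values. The fit was tested on simulated data.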

Additional observations from a re-analysis of the deposited data

Results flagged for a closer look

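The effect of the galectin-1 sort (GAL1+ over GAL1-) differed from that of the PDGFRA sort (PDGFRA+ over PDGFRA-) for all 8 factors by the limma test of the difference itself, adjusted over all genes. The differences between both log2 fold changes were 4.98 for Spi1, 4.55 for Ikzf1, 4.53 for Irf5, 3.90 for Cebpb, 3.47 for Cebpa, 3.02 for Maf, 1.67 for Runx1 and 1.31 for Irf8. For Irf8 the call was lost when all libraries of T3 (1.34, adjusted p = 0.117) or of T5 (0.99, adjusted p = 0.0965) were left out, or the single libraries GAL1- of T5 (adjusted p = 0.0581), PDGFRA+ of T3 (0.0592), PDGFRA+ of T5 (0.0549) or GAL1+ of T4 (0.0575). The pan-leukocyte genes differed between both sorts in the same direction, with 14 of 14 called, against 26.2% of all genes, and a median of 4.70. Their part in these differences was not tested.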

How the results depend on the processing

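All 8 factors remained called for GAL1+ over GAL1- and none for PDGFRA+ over PDGFRA- under every alternative run. The difference of sorts stayed at 8 of 8 under every alternative run with all 12 libraries. Most of the remaining counts depended on the processing. No replicate block changed 6 to 1 for PDGFRA+ against GAL1+, 2 to 0 for PDGFRA- against GAL1+ and 7 to 4 for PDGFRA- against GAL1-, with 6 to 4 for PDGFRA+ against GAL1-. For PDGFRA+ against GAL1+ the count of 6 became 8 with 2 groups only or after centring on library medians. It became 7 with voom weights on recovered reads and 4 for eBayes without a trend. For PDGFRA- against GAL1+ the count of 2 became 1 with 2 groups only, 0 for eBayes without a trend, 1 after quantile normalization, 3 with either set of voom weights and 5 after centring on library medians, which differ by 0.14 between these populations and by 0.16 between PDGFRA+ and GAL1+. With the macrophage reference, 7 rather than 4 relative differences were called, with the microglia reference 4, and without moderation 6. These fits called 17742, 17416 and 17553 of all genes, against 17337 with the pan-leukocyte reference and moderation. Leaving out 1 library or tumor gave counts of 0 to 8 (PDGFRA+ against GAL1+), 0 to 7 (PDGFRA- against GAL1+), 0 to 7 (PDGFRA+ against GAL1-), 3 to 8 (PDGFRA- against GAL1-), 7 to 8 (difference of sorts), 3 to 5 (relative, galectin-1) and 0 to 2 (relative, PDGFRA+ against GAL1+). The number of all genes called moved as well, for PDGFRA- against GAL1+ from 0 to 5837. Signs turned for uncalled values: Cebpb between PDGFRA populations was 0.06 after quantile normalization, and Spi1 relative to macrophage genes -0.73. With a library or tumor left out, PDGFRA+ over PDGFRA- ranged from -0.87 to 0.43 for Spi1, -0.4 to 0.42 for Irf8, -0.8 to 0.27 for Irf5, -0.88 to 0.45 for Cebpa, -0.7 to 0.49 for Cebpb, -0.41 to 0.16 for Runx1 and -0.99 to 0.25 for Ikzf1. The relative galectin-1 differences ranged from -0.53 to 0.12 for Ikzf1 and -0.06 to 0.02 for Irf5, and those of PDGFRA+ against GAL1+ from -0.14 to 0.25 for Ikzf1 and -0.08 to 0.08 for Spi1. The cause was not tested. Of 1752 single-gene alternatives, 1542 kept direction and side of the threshold, 127 lost the call, 45 gained it and 38 changed sign. With 3 tumors, an uncalled difference may lie anywhere within its interval and is not shown to be absent.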

Other observations

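The Ikaros and C/EBP families were split between populations. Ikzf1 exceeded its GAL1- level in GAL1+ cells by 4.27, whereas Ikzf2 (-0.94 ± 0.32, adjusted p = 0.0296), Ikzf4 (-2.23 ± 0.26, adjusted p = 0.000111) and Ikzf5 (-0.65 ± 0.17, adjusted p = 0.00849) were lower, and Ikzf3 was at -0.09 (adjusted p = 0.893). Cebpa and Cebpb were higher by 3.26 and 3.86, Cebpd was lower by -1.08, and Cebpg was at 0.24 (adjusted p = 0.092). In contrast, all 3 RUNX genes were higher, Runx1 by 1.5, Runx2 by 1.87 ± 0.32 and Runx3 by 4.18 ± 0.35. Of the interferon regulatory factors, Irf7 was higher by 3.01 ± 0.32, Irf4 by 1.06 ± 0.37 (adjusted p = 0.0315) and Irf2 by 0.76 ± 0.15, while Irf1 (0.21), Irf3 (0.41) and Irf9 (0.24) did not pass. The genes of this paragraph were chosen after their values were seen.

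Several marker lists had lower summed levels in PDGFRA+ than in PDGFRA- cells. The monocyte markers summed to 17.44, 28.83 and 40.95 CPM in the PDGFRA+ libraries of T3, T4 and T5 and to 45.28, 47.79 and 209.5 CPM in PDGFRA-, where the highest value is that of the T5 library that stood apart. Oligodendrocyte markers were at 339.2 to 431.2 CPM in PDGFRA+ and 837.6 to 1196 CPM in PDGFRA-, and dendritic markers at 16.51 to 24.76 and 26.94 to 81.29 CPM. The neutrophil sums overlapped, at 22.39 to 44.96 and 43.33 to 87.4 CPM. No gene of the table was called by limma in this comparison. At an unadjusted p under 0.05 there were 5 of 6 monocyte, 6 of 6 oligodendrocyte, 3 of 4 dendritic and 5 of 7 neutrophil genes, beside 11.8% of all genes. These lists were singled out after their values were seen.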
